A study of Mus musculus with 8 samples.

Results

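The subject is 10 genes of the AP-1 transcription factor family and of the immediate early response, namely Fos, Fosb, Fosl2, Jun, Junb, Jund, Atf3, Egr1, Ier2 and Nr4a1. They were named as a list and matched by gene symbol, and all 10 were found among 35087 named rows. Of these, 9 passed the filter on low counts and were among the 15102 genes tested, and Atf3 did not pass. RNA came from granulosa cells, the somatic cells around the oocyte, cut by laser microdissection from mouse ovary sections and amplified with the Smart-seq2 method. Mice of both groups were female and carried Hif1a alleles flanked by loxP sites, and both received tamoxifen at 100 mg/kg daily for 5 days from 3 weeks of age, with ovaries taken 7 days after the last dose. In the cKO group, with 2 libraries, mice had Foxl2-CreERT2 as well, in which Foxl2, a granulosa cell gene, drives a tamoxifen-dependent Cre recombinase, and its genotype label reads knockdown. The WT group (n = 6 libraries) carried no Cre, so WT here means floxed, tamoxifen-treated and without recombination. Neither the animal nor the follicle stage of a library is in the labels, so libraries may share an animal, and p-values over libraries may then be too small and measure only the spread between these libraries. Groups follow the titles and genotype labels, although the description of each of the 8 samples gives it a library name of the cKO series.

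AP-1 is a dimer of basic leucine zipper proteins. Jun proteins can pair with each other or with Fos proteins, whereas Fos proteins need a partner such as a Jun protein, and ATF proteins can join either. Fos, Fosb, Jun, Junb, Egr1, Ier2, Atf3 and Nr4a1 are known as immediate early genes, whose transcripts appear within minutes of a stimulus and are short-lived. Jund is known for steadier expression. In granulosa cells such genes are known to respond to gonadotropins through cAMP and the MAP kinases.

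The RefSeq promoter table for GRCm38.p6 matched 8 of the 10 members, and for 7 of them a stretch upstream of the start site free of annotated exons could be read. The stretches of Fos, Nr4a1 and Jun are shown because Fos is the founding immediate early gene, Nr4a1 holds the most copies of the cAMP response element motif among these 7 stretches and Jun holds none. Each is 250 bases, printed from the most distant base to the base before the annotated start. Capitals mark the response element motif TGACG, or its reverse complement, and the core to which HIF1 is known to bind, ACGTG or GCGTG, or the reverse complement of either.
Fos (chr12:85473640-85473889, plus strand): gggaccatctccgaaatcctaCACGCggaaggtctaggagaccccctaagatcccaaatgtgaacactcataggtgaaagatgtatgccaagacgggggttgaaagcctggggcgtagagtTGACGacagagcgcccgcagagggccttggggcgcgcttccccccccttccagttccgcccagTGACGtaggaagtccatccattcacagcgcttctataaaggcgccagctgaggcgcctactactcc
Nr4a1 (chr15:101266596-101266845, plus strand): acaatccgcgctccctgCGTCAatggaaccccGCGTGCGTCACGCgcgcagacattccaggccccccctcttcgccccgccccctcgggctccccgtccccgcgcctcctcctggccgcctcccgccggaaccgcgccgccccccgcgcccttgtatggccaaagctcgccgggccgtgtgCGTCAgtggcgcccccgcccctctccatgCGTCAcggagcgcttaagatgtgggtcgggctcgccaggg
Jun (chr4:95052223-95052472, minus strand): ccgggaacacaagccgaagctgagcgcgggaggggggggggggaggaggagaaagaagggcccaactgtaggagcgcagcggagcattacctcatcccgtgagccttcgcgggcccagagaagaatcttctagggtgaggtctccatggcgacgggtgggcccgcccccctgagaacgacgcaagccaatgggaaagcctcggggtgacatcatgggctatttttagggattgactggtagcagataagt
In these stretches the TGACG motif occurred at 2 positions in Fos, the nearer beginning 66 bases before the start, and at 4 positions in Nr4a1, the nearest beginning 40 bases before it. The TGACG motif and the HIF core overlap in the distal part of the Nr4a1 stretch, so that 1 run of capitals there holds both. Both strands of the same 250 bases were searched in all 32851 promoters of the table. The TGACG motif was in 17.8% of them and in 5 of the 8 members (Atf3, Fos, Fosb, Junb and Nr4a1), and a HIF core of either form was in 38.6% of them and in 5 of the 8 members (Atf3, Fos, Junb, Jund and Nr4a1). The full element TGACGTCA (1.55% of all promoters), the AP-1 element TGANTCA (6.75%) and the CArG box bound by serum response factor (1.47%) were in none of the 8 windows. A match is an exact match of letters, so tgacatca in the Jun stretch, a near match to TGACGTCA, was not counted. The absence of a match concerns this window only. Windows follow RefSeq starts, which for some members are not the gene start in GENCODE M21. The Jund window ends at 70697738, upstream of the gene's start at 70698949. The Nr4a1 window begins at 101266596, inside its gene, which starts at 101254269. The Atf3 stretch (191183341 to 191183583, minus strand) also lies inside its gene, which reaches 191218039.

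The libraries held from 651426 to 4719293 reads on named genes, with the fewest in cKO replicate 2. Where a library shows 0 reads of a gene, up to 3 reads remain possible, equal to 1.51 and 4.08 CPM (the read count scaled to the size of the library after TMM) in cKO replicates 1 and 2 and from 0.651 to 1.64 CPM in the WT libraries. Such limits cover counting error only, since reads were amplified without molecular identifiers. All 10 granulosa markers had reads in both groups, with a summed level from 2022 to 5388 CPM in cKO and from 3919 to 57151 CPM in WT. Reads of other cells were present. The summed levels in cKO and WT ran from 63.9 to 213 and from 15.8 to 345 CPM for 4 theca markers, from 391 to 1414 and from 16.5 to 1056 CPM for 8 stroma markers, and from 103 to 642 and from 27.8 to 492 CPM for 6 smooth muscle and pericyte markers. They ran from 321 to 399 and from 105 to 513 CPM for 9 endothelial markers, from 53.0 to 417 and from 18.0 to 367 CPM for 4 red blood cell markers, and from 29.9 to 52.0 and from 6.98 to 1801 CPM for 10 oocyte markers. The 8 immune cell markers did not overlap between the groups, with 34.0 to 56.5 CPM in cKO and 2.89 to 32.2 CPM in WT, and each had reads in both groups. Immune cells also transcribe immediate early genes, and the part of these cells in the results below was not tested. The mitochondrial genome took 8.87% and 10.5% of reads in the cKO libraries and from 1.42% to 3.65% in WT. Hif1a, the targeted gene, had 22.2 and 13.6 CPM in cKO and from 35.3 to 105.6 CPM in WT, with no overlap (log2 fold change -1.84, edgeR adjusted p = 0.369). WT replicates 1 and 2 were its 2 lowest WT libraries, and its value was -0.94 in the libraries numbered 1 and 2 alone and -0.32 with the number of genes detected (5 or more reads) as a covariate.

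Per length, in TPM as deposited, a unit that divides by transcript length, Jund and Ier2 stood above the other members. Jund had a median level of 41.1 TPM over the 8 libraries (from 19.5 to 55.3 TPM) and Ier2 one of 40.2 TPM (from 20.04 to 86.2 TPM). Jund was above Ier2 in 2 of 8 libraries and Ier2 above Fosl2, the next, in 7 of 8. Fosl2 followed at 8.31 TPM, then Jun at 5.67, Nr4a1 at 4.63, Junb at 3.17, Egr1 at 1.25, Fos at 0.763, Fosb at 0.202 and Atf3 at 0.101 TPM. The ranges of all neighbours in this order overlapped. Compared within libraries, from Fosl2 down each gene was above the next in 3 (Egr1 over Fos) to 6 (Fos over Fosb) of 8, so that part of the order is loose. By mean TPM, Ier2 and Jund were higher than 90.7% and 89.5% of the 25322 genes with at least 1 read, Fos than 54.8% and Fosb than 23.1%. The effective length the authors assigned to a gene varied between libraries, from 455 to 899 bases for Fos and from 134 to 1616 bases for Junb, which moves the TPM of these genes. The levels of single genes that follow are therefore in CPM, which takes no account of length. Shares and sums of the Jun and Fos genes are in TPM.

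Fosl2, which encodes the Fos family member Fra-2, was the Fos gene with the highest median level per length. It had 37.3 CPM in cKO replicate 1 (74 reads) and 28.5 CPM in cKO replicate 2 (21 reads). The 6 WT libraries had a lowest level of 31.5, a median of 104.9 and a highest of 240.9 CPM. WT replicates 3, 4 and 5 were high at 156.7, 240.9 and 202 CPM, whereas WT replicates 1 and 2, with 31.7 and 31.5 CPM, lay inside the cKO range. The cKO libraries averaged 32.9 ± 6.24 CPM (SD, n = 2) and the WT libraries 119 ± 92.5 CPM (SD, n = 6), and the fitted log2 fold change was -1.85 ± 0.83 (SE; by edgeR, unadjusted p = 0.043 and adjusted p = 0.397). With no filter on low counts edgeR's adjusted p was 0.044. The unadjusted p by edgeR was 0.074, 0.079 and 0.085 without WT replicates 3, 4 and 5. It was 0.017, 0.022 and 0.037 without WT replicates 1, 2 and 6. Without cKO replicates 1 and 2 in turn the log2 fold change was -2.13 and -1.77.

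Fos, which encodes the prototypical partner of Jun proteins, had few reads in any library. It had 0 reads in cKO replicate 1 and 9 reads in cKO replicate 2, which is 12.2 CPM and the highest value of all. In WT it ran from 0 reads in WT replicate 2 to 8.46 CPM (39 reads) in WT replicate 6, with a median of 1.56 CPM. The groups overlapped fully, and 4 of the 8 libraries held fewer than 3 reads. The cKO libraries averaged 6.11 ± 8.65 CPM (SD, n = 2) and the WT libraries 2.70 ± 3.12 CPM (SD, n = 6), and the fitted log2 fold change was 1.07 ± 1.65 (SE; by edgeR, adjusted p = 0.809), which rested on cKO replicate 2 alone. Without that library cKO held no read, and the fitted -6.23 has no measured basis.

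Fosb, a close relative of Fos, had 4 reads in each cKO library, which is 2.02 and 5.43 CPM. WT replicates 1, 2 and 4 had 0 reads, the WT median was 0.338 CPM and the highest value was 3.69 CPM (17 reads) in WT replicate 6. The log2 fold change was 1.98 ± 1.80 (SE; by edgeR, adjusted p = 0.654), from 8 reads in cKO and 22 in WT, and it was 1.10 without cKO replicate 2. Fos and Fosb had their highest WT values in the same library, WT replicate 6, which also held the most oocyte marker RNA (1801 CPM). Whether oocyte RNA had a part in this was not tested.

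**Figure D1:**
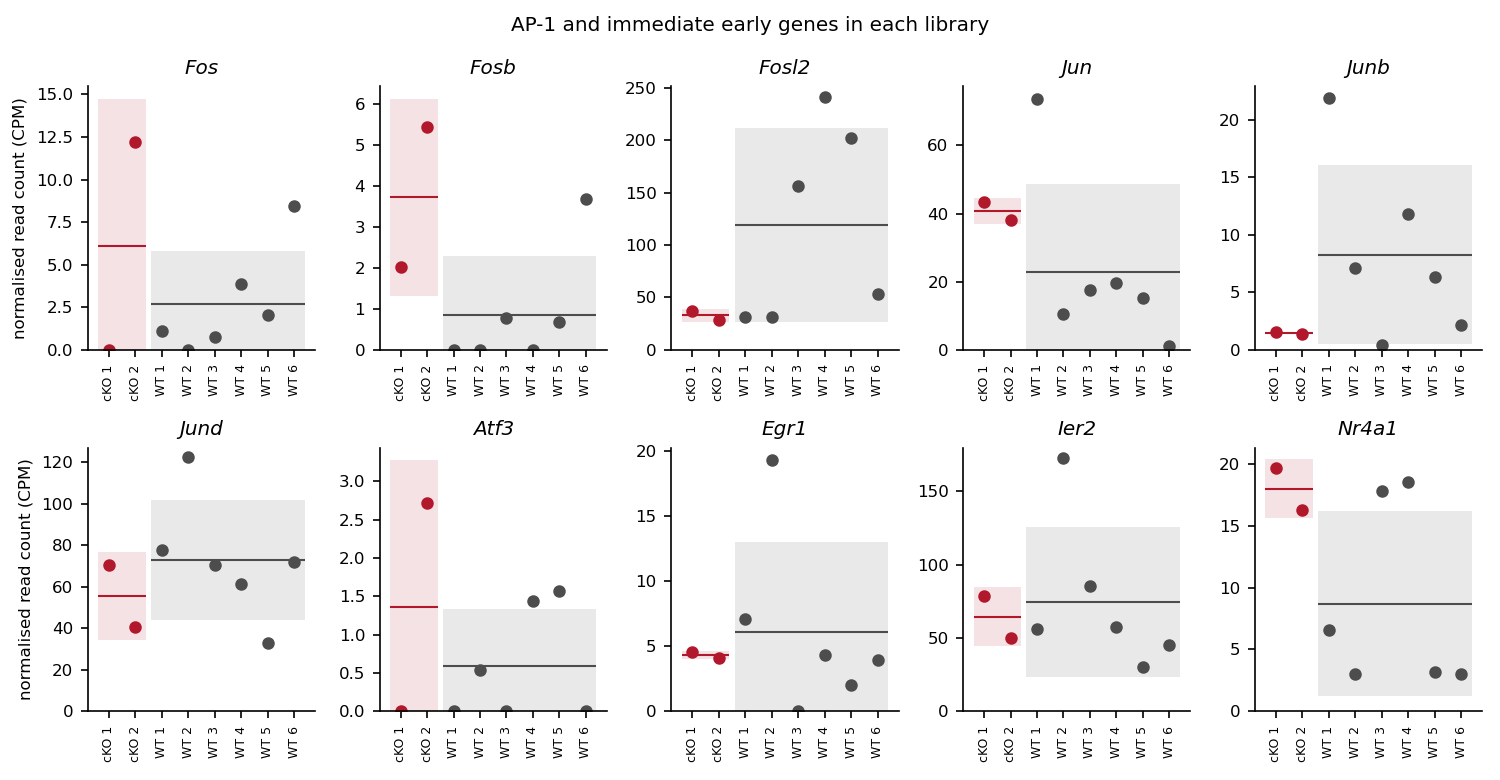
Normalised read count (CPM after TMM, linear axes from 0) of each of the 10 genes in the 2 cKO libraries (red) and the 6 WT libraries (grey); lines are group means and shaded bands 1 SD, cut off at 0. Fosl2 is highest in WT replicates 3, 4 and 5 (156.7 to 240.9 CPM), and in none of the genes tested do the groups lie apart.

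Jund, which encodes the Jun protein with the steadiest known expression, stood at 70.7 CPM (140 reads) in cKO replicate 1 and at 40.8 CPM (30 reads) in cKO replicate 2. In WT the lowest level was 32.9 CPM in WT replicate 5, the median 71.3 and the highest 122.6 CPM in WT replicate 2. Both cKO values lay inside the WT range. The cKO libraries averaged 55.7 ± 21.1 CPM (SD, n = 2) and the WT libraries 72.8 ± 29.1 CPM (SD, n = 6), and the fitted log2 fold change was -0.37 ± 0.49 (SE; by edgeR, adjusted p = 0.775). Leaving out cKO replicate 1 gave -0.90, and leaving out cKO replicate 2 gave -0.09.

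Jun, which encodes an AP-1 subunit that can form dimers with itself, had 43.4 and 38.0 CPM in cKO (86 and 28 reads). The WT libraries ran from 1.09 CPM (5 reads, WT replicate 6) over a median of 16.4 to 73.8 CPM (WT replicate 1). Both cKO libraries thus lay above WT replicates 2 to 6, at 1.09 to 19.5 CPM, and below WT replicate 1. The log2 fold change was 0.85 ± 0.90 (SE; by edgeR, adjusted p = 0.707). Without WT replicate 1 it was 1.69 with an unadjusted p = 0.038 in edgeR, and in the libraries numbered 1 and 2 alone it was -0.02. In the fit without WT replicate 1, 1940 of 14923 genes were lower in cKO and 1076 higher at an unadjusted p under 0.05.

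Junb, which encodes a Jun protein often found to restrain Jun, had 1.51 and 1.36 CPM in cKO, resting on 3 reads and 1 read. WT ran from 0.388 CPM (1 read, WT replicate 3) over a median of 6.69 to 21.9 CPM (40 reads, WT replicate 1). WT replicate 3 was the 1 WT library below both cKO libraries. The log2 fold change of -2.46 ± 1.43 (SE; by edgeR, adjusted p = 0.487) was the most negative of the members and rests on these 4 reads in cKO. On the scale of log2(TPM + 1) it was -0.35.

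In every library Jund was the leading Jun gene per length, with 58.0% to 96.6% of the summed TPM of Jun, Junb and Jund. Jun took 22.7% and 28.1% of that sum in the cKO libraries, 27.1% in WT replicate 1 and from 0.711% to 16.2% in WT replicates 2 to 6. Such shares also move with the effective length assigned in each library. Junb took 11.1% in cKO replicate 2, where 1 read gave 5.12 TPM. In cKO replicate 1 its 3 reads gave 0.705 TPM. Among Fos, Fosb and Fosl2, Fosl2 took from 64.7% to 100% of the summed TPM in 7 libraries and 25.6% in cKO replicate 2, where Fos took 68.5% on the strength of 9 reads. The summed TPM of the Fos genes was below that of the Jun genes in all libraries but WT replicate 5, where it was 1.24 times as high. The ratio of the sums ran from 0.0569 in WT replicate 2 to 0.806 in WT replicate 4 among the others.

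**Figure D2:**
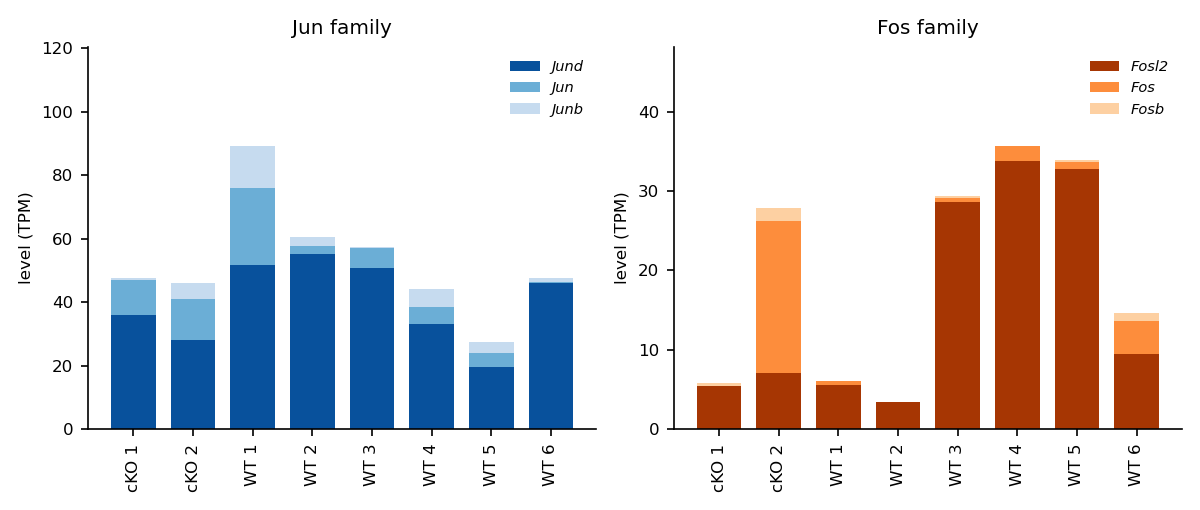
Level per length (TPM, stacked bars from 0) of the Jun genes (left) and Fos genes (right) in each library. Jund is the largest part of the left bars throughout, and the right bars are mostly Fosl2 except in cKO replicate 2, where Fos is drawn from 9 reads.

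Atf3, a stress-induced gene whose product pairs with Jun proteins, had 0 and 2 reads in cKO and 15 reads in WT, spread over 3 of the 6 libraries. Its highest value was 2.72 CPM in cKO replicate 2, under the limit of 4.08 CPM there, and the highest in WT was 1.58 CPM. It was not tested, and no difference was detectable at this depth.

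Egr1, which encodes a zinc finger transcription factor induced through serum response elements, had 4.54 and 4.08 CPM in cKO (9 and 3 reads). WT ran from 0 reads in WT replicate 3 over a median of 4.12 to 19.3 CPM (71 reads) in WT replicate 2. The log2 fold change was -0.49 ± 1.37 (SE; by edgeR, adjusted p = 0.905), and it turned to 0.35 without WT replicate 2.

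Ier2, which encodes a nuclear protein named for its immediate early response, had 78.7 and 50.3 CPM in cKO. WT ran from 30.2 CPM in WT replicate 5 over a median of 56.6 to 172 CPM in WT replicate 2. Both cKO values lay inside the WT range. The log2 fold change was -0.20 ± 0.59 (SE; by edgeR, adjusted p = 0.909), and it was 0.27 without WT replicate 2. Ier2 and Jund shared their highest WT library (WT replicate 2) and their lowest (WT replicate 5), and Egr1 shared the first.

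Nr4a1, which encodes the orphan nuclear receptor Nur77, had 19.7 and 16.3 CPM in cKO (39 and 12 reads). In WT the lowest level was 2.99, the median 4.86 and the highest 18.5 CPM. WT replicates 3 and 4 lay at 17.8 and 18.5 CPM beside the cKO libraries, and the other 4 WT libraries lay between 2.99 and 6.56 CPM. The cKO libraries averaged 17.99 ± 2.39 CPM (SD, n = 2) and the WT libraries 8.68 ± 7.48 CPM (SD, n = 6), and the fitted log2 fold change was 1.06 ± 0.86 (SE; by edgeR, adjusted p = 0.615). In the libraries numbered 1 and 2 alone it was 1.98.

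None of the members passed the adjusted threshold. Of the 9 members tested, 5 had a negative and 4 a positive log2 fold change. Their median was -0.20, beside -0.08 over all genes tested, and it lay between -0.63 (without cKO replicate 1) and 0.31 (without WT replicate 2) when 1 library was left out. In those same fits the median of all genes was -0.27 and -0.04. The members' median was 0.22 with limma-voom, 0.050 with the replicate block, -0.70 in the libraries numbered 1 and 2 alone (7 members tested) and -0.86 with detected genes as a covariate. The median of all genes was 0.04, -0.05, -0.03 and -0.26 in that order. edgeR called 0 of them at an adjusted p under 0.05, where it called 0 of all genes (0%), and DESeq2 called 0 of the 4 to which it gave an adjusted p, beside 3.98% of the 6881 genes to which it gave one. At an unadjusted p under 0.05, 1 of 9 (11.1%), Fosl2, stood beside 12.3% of all genes tested, and 8.89% of all genes were lower in cKO by that rule. In 0 of 9 members did the groups not overlap, beside 12.4% of all genes. With DESeq2's size factors the median of all genes was 0.05 and that of the members -0.08. All 9 kept the sign of their log2 fold change with those factors and with no scaling factor.

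**Figure D3:**
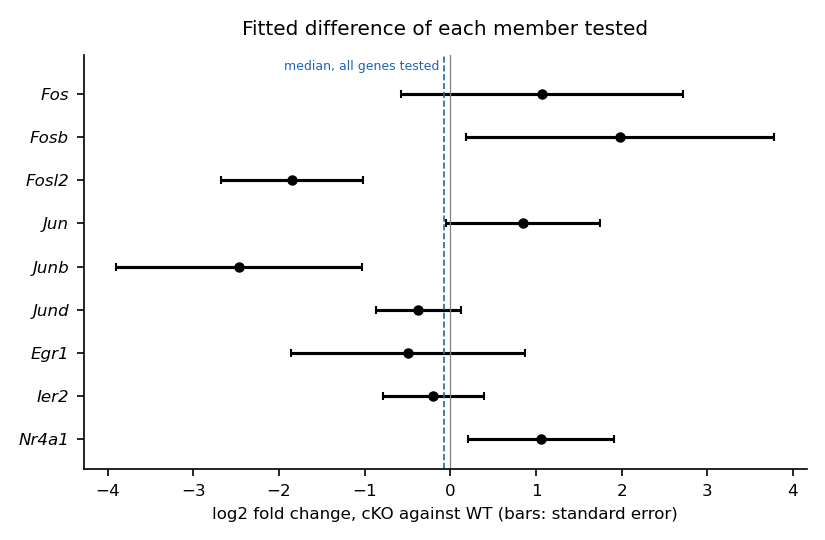
Log2 fold change of cKO against WT (points) with its standard error (bars) for the 9 members tested; the dashed line marks the median of all genes tested, -0.08. The points lie on both sides of 0, from -2.46 for Junb to 1.98 for Fosb.

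The members varied widely among the WT libraries themselves. The SD of the log2 normalised read count over the 6 WT libraries had a median of 1.32 over the 9 members and 0.80 over all genes tested. It was 0.61 for Jund and 0.85 for Ier2, and between 1.07 and 1.75 for the other 7, with Jun the highest. For Jun, Egr1 and Junb this SD exceeded that of 94.6%, 92.5% and 91.2% of all genes tested, and for Jund that of 32.0%. In Egr1, Junb, Fos and Fosb, a few reads per library contribute counting error to this spread. Jun ranged 68.0-fold over the WT libraries, from 5 reads in WT replicate 6 to 135 in WT replicate 1, and Jund 3.73-fold.

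Fosl2 was highest in the libraries with the most Inhba. WT replicates 3 to 6 differ from the other 4 libraries in Inhba, the activin and inhibin subunit gene, and in Amh, the gene for anti-Müllerian hormone, 2 genes chosen after their values were seen. Inhba had from 2238 to 10991 CPM in WT replicates 3 to 6, but 51.4 and 93.0 CPM in WT replicates 1 and 2, with 349 and 61.1 CPM in cKO. Amh had from 2.33 to 174.7 CPM in WT replicates 3 to 6, but 762 and 1120 CPM in WT replicates 1 and 2, with 607 and 223 CPM in cKO. WT replicates 3 to 6 lay in the same order in Fosl2 and Inhba, with replicate 4 highest, then 5, 3 and 6. Among the libraries numbered 1 and 2 alone the log2 fold change of Fosl2 was 0.14 (edgeR unadjusted p = 0.803), against -1.85 over all libraries. That subset leaves out WT replicates 3 to 6, the WT libraries with the higher Fosl2 levels. The 0.14 therefore follows from the choice of libraries and is no separate test. The cKO libraries had 12120 and 12847 genes with 5 or more reads, fewer than any WT library (13597 to 14727). With this number as a covariate the Fosl2 value was 0.03. The number does not overlap between the groups, so the covariate can also take up a difference between genotypes. The 0.03 therefore cannot separate the number of detected genes from genotype. Hif1a, the targeted gene, likewise went from -1.84 to -0.32 with this covariate. No cKO library had Inhba above 349 CPM, so the difference between the libraries with high and low Inhba and the difference between genotypes cannot be told apart for Fosl2 in the full set.

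**Figure D4:**
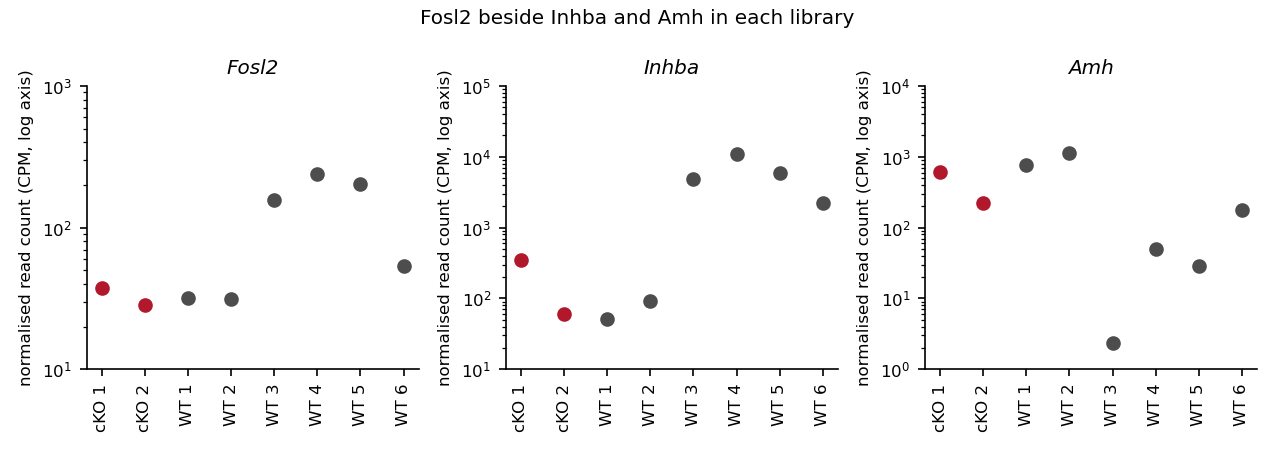
Normalised read count (CPM after TMM, log axes) of Fosl2, Inhba and Amh in the 2 cKO libraries (red) and 6 WT libraries (grey). Fosl2 is at 28.5 to 37.3 CPM in cKO and in WT replicates 1 and 2, and highest in WT replicates 3 to 5, where Inhba is at 4820 CPM or more.

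Related genes were followed through 5 lists. The median log2 fold change of all genes, to set beside theirs, was -0.08. It was -0.27 and -0.34 without cKO replicates 1 and 2 in turn, and -0.26 with detected genes as a covariate. Of 13 other AP-1 members and basic leucine zipper partners, 9 were tested, with 0 at an unadjusted p under 0.05, beside 12.3% of all genes tested. The median log2 fold change of this list was -0.07, with 0.06 by DESeq2's size factors, -0.27 by limma-voom and by the replicate block, and between -0.25 and 0.13 when 1 library was left out. The members with the smallest p were Mafk, a small Maf protein gene (0.67 ± 0.51, SE, edgeR adjusted p = 0.588), and Atf7, a CREB-related factor gene (-0.66 ± 0.54, SE, edgeR adjusted p = 0.615). Without cKO replicate 1 and 2 in turn the value of Atf7 was -1.27 and -0.36, without WT replicate 2 that of Mafk was 1.10, and in the libraries numbered 1 and 2 alone they were -1.12 and 0.13. Fosl1, Batf, Batf3 and Jdp2 did not pass the filter on low counts.

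Other immediate early genes (27 listed, 22 tested) had a median of 0.04 (from -0.19 without cKO replicate 1 to 0.24 without WT replicate 6), with 12 positive and 10 negative values. The median was 0.42 with limma-voom and -0.13 with detected genes as a covariate. At an unadjusted p under 0.05 there were 0 of 22, beside 12.3% of all genes tested. With limma-voom there were 3 of 22, where 1028 of all 15102 genes tested were lower and 1458 higher. Egr2, Egr3, Egr4, Nr4a3 and Arc did not pass the filter. Gadd45g, a growth arrest and stress gene, had 115.6 and 104.6 CPM in cKO and from 15.6 to 104.4 CPM in WT, so that the lower cKO value was just above the highest WT value (log2 fold change 1.07 ± 0.62, SE, edgeR adjusted p = 0.491). WT replicates 1 and 2, at 99.5 and 104.4 CPM, were close to cKO and WT replicates 3 to 6 lay at 15.6 to 46.7 CPM, and in the libraries numbered 1 and 2 alone the value was 0.20. Its relative Gadd45b had 2.02 and 2.72 CPM in cKO (6 reads in all) and from 0.901 to 27.8 CPM in WT (fitted log2 fold change -2.26 ± 1.32, SE; by edgeR, adjusted p = 0.488).

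Kinases and transcription factors upstream of the immediate early genes (27 tested) had a median of -0.35, with 21 negative and 6 positive values. Over all genes tested, 47.3% of values were positive. The median of the list was -0.27 with DESeq2's size factors, -0.32 with no scaling factor and -0.81 without cKO replicate 1, where that of all genes was -0.27. In the libraries numbered 1 and 2 alone it was -0.12 (16 negative and 10 positive). There were 17 negative and 10 positive values with log2(TPM + 1) and with detected genes as a covariate. With the replicate block there were 18 and 9. At an unadjusted p under 0.05, 2 of 27 were lower, beside 8.89% of all genes, and 0 were higher. Prkacb, a catalytic subunit gene of protein kinase A, was 1 of the 2 lower genes (log2 fold change -1.65 ± 0.58, SE, edgeR adjusted p = 0.369). Prkacb had 14.6 and 14.9 CPM in cKO and from 23.7 to 64.7 CPM in WT, with the 2 lowest WT values in WT replicates 1 and 2. In the libraries numbered 1 and 2 alone its value was closer to 0, at -0.62.

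Feedback inhibitors of these kinases and factors (11 listed, 10 tested) had a median of -0.43, which was -0.01 without WT replicate 2 and from -0.38 to -0.10 without any other single library. The median turned to 0.23 with limma-voom, to 0.096 with the replicate block and to 0.011 in the libraries numbered 1 and 2 alone. At an unadjusted p under 0.05, 1 of 10 was lower and 1 higher, beside 8.89% and 3.4% of all genes. Ppp2ca, the gene of a catalytic subunit of protein phosphatase 2A, had 61.1 and 66.6 CPM in cKO and from 87.0 to 199 CPM in WT (log2 fold change -1.19 ± 0.50, SE, edgeR adjusted p = 0.380). Its lowest WT values were in WT replicates 1 and 2, and the value was -0.36 in the libraries numbered 1 and 2 alone and -0.40 with detected genes as a covariate. Dusp6, a gene of the dual-specificity phosphatases, had 4.04 and 29.9 CPM in cKO (8 and 22 reads) and from 0 to 5.77 CPM in WT (log2 fold change 2.82 ± 1.22, SE, edgeR adjusted p = 0.386). The Dusp6 value was 0.70 without cKO replicate 2.

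AP-1 target genes (19 listed, 13 tested) had a median of -0.61, with 7 negative and 6 positive values, and this median lay between -0.90 (without cKO replicate 1) and 0.17 (without WT replicate 5) when 1 library was left out. The median turned to 0.99 with detected genes as a covariate, 0.79 with limma-voom and 0.071 with log2(TPM + 1), so that its sign depended on the setting. At an unadjusted p under 0.05, 1 of 13 was lower and 0 were higher, beside 8.89% and 3.4% of all genes. Mmp14, a membrane-bound matrix metalloproteinase gene, had 24.2 and 36.7 CPM in cKO and from 41.0 to 115.4 CPM in WT (log2 fold change -1.48 ± 0.53, SE, edgeR adjusted p = 0.369). Its lowest WT values were in WT replicates 1 and 2, and the value was -0.49 in the libraries numbered 1 and 2 alone. Mmp2, the gene of the gelatinase that Mmp14 is known to activate, had 29.8 and 19.0 CPM in cKO and from 0.868 to 14.95 CPM in WT (log2 fold change 1.58 ± 0.77, SE, edgeR adjusted p = 0.425). For both the groups did not overlap, in opposite directions. These were 1 lower and 1 higher of the 13 tested, beside 12.4% of all genes in either direction. Mmp2 is also expressed by stroma cells, whose markers are given above. edgeR called 0 genes in these 5 lists at an adjusted p under 0.05, and DESeq2 also called 0 of the 33 to which it gave an adjusted p.

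The genes whose pattern over the 8 libraries was most like the mean log2 level of the 9 members tested were Oplah, Kdm2b, Asl, Rnf44 and Acer3, out of 7549 candidates with a mean of at least 20 CPM. Their Pearson correlations with that mean were 0.91, 0.89, 0.85, 0.85 and 0.84, and Spearman's rho ran from 0.81 to 0.86 (n = 8 libraries). These are the highest of many and are given as a description, over libraries that share depth and group differences. The mean itself was lowest in WT replicate 3, at 3.20, and highest in WT replicate 4, at 3.99 on the log2 CPM scale, with 3.54 and 3.87 in cKO. None of the 5 genes passed edgeR's adjusted threshold, with log2 fold changes from 0.13 (Oplah) to 0.44 (Asl) and adjusted p from 0.663 to 0.927.

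The reads do not mark the strand, and by GENCODE M21 the exons of 3 members overlap those of another gene: Jun with Junos, Junb with Prdx2 and Jund with Gm11175. Reads from such overlaps cannot be assigned with certainty. Fosl2 (chromosome 5, 32135801 to 32157842, plus strand), Fos (chromosome 12, 85473890 to 85477273, plus strand) and Nr4a1 (chromosome 15, 101254269 to 101274795, plus strand) have no such overlap.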

How the data were processed

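Each library came as 1 table in which, per the file headers, the authors deposited estimated read counts and TPM, with lengths. HISAT2 and Salmon, without versions, and mm10 are the tools and build in the submitters' processing notes. The sources used here do not give the annotation. Rows that carry only a transcript identifier (1548 of 36635, from 0.435% to 0.739% of reads) name no gene and were left out. The deposited estimated counts were rounded, filtered with edgeR's filterByExpr (minimum count 10, minimum total 15) and scaled by TMM over 15102 genes. The comparison of cKO with WT used edgeR 4.0.16 in R 4.3.3 (glmQLFit, then glmQLFTest, with group as the term), with Benjamini-Hochberg adjustment over all genes and a threshold of 0.05. Standard errors come from the F statistic. On simulated data the fit called 17% of 100 genes changed 4-fold and 62% of 100 genes changed 16-fold, with 1 false call. Most changes of 4-fold would thus be missed at the adjusted threshold. Depth ran from 651426 to 4719293 reads per library. All 28 pairs of libraries differed beyond sampling noise (chi-square per degree of freedom from 13.0 to 99.5). Deposited TPM values were used for levels between genes.

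The members and lists were chosen with earlier results of these data known. Named genes were the 10 members, Hif1a, the 2 of smallest p in each related list, and the 5 with the most similar pattern. Of these, 1 gene of the upstream list is not reported here and enters its list's counts only. Inhba and Amh were added after their values were seen, and a few genes are named only for not passing the filter. Alternatives were DESeq2 1.42.0, DESeq2's size factors, no scaling factor, no filter, 10 reads in 6 libraries, limma 3.58.1 (voom with quality weights, and log2(TPM + 1)), robust dispersion, the replicate number as a block, detected genes (at least 5 reads) as a covariate, mitochondrial genome genes removed, the libraries numbered 1 and 2 alone, and each library left out. Promoter sequences are from RefSeq (GRCm38.p6) and coordinates from GENCODE M21, both on the assembly that mm10 denotes.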

Additional observations from a re-analysis of the deposited data

Results flagged for a closer look

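In 4 of the 25 genes checked, 1 WT library stood apart from the other 5 by a gap of more than 0.625 of the range of the group (Dixon's criterion for 6 samples). In all 4 it was the highest library. The criterion flags about 1 in 20 groups by chance only where values are normally distributed. It was applied here to CPM on a linear scale, which cannot fall below 0, so the 4 flags cannot be set against that rate. Fosb had 3.69 CPM in WT replicate 6 (17 reads) and at most 0.776 CPM in the others. Jun had 73.8 CPM in WT replicate 1 and from 1.09 to 19.5 CPM in the others. Egr1 had 19.3 CPM in WT replicate 2 and at most 7.10 CPM in the others. Mafk had 96.5 CPM in the same WT replicate 2 and from 25.0 to 41.0 CPM in the others.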

How the results depend on the processing

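For 24 genes, 465 values were computed under 20 alternatives: 441 kept their direction and side of the threshold, 1 passed the threshold (Fosl2 with no filter, -1.92) and 23 turned sign. Values to which DESeq2 gave no adjusted p, those of Fos, Fosb and Junb among them, were counted as not passing. The number of members called was 1 with no filter and 0 otherwise. The number at an unadjusted p under 0.05 was 1 (Fosl2, but Fosb in place of Fosl2 with limma-voom) and 0 with 10 reads in 6 libraries, DESeq2's size factors, detected genes as a covariate, the libraries numbered 1 and 2, log2(TPM + 1) and the replicate block, and from 0 to 2 when 1 library was left out. Over all genes the number called was 0 in edgeR, 274 with DESeq2, 5 with log2(TPM + 1), 478 with no filter, 1 with the replicate block and from 0 to 1 when 1 library was left out. Of genes at an unadjusted p under 0.05, 27.7% were higher in cKO, 36.9% with DESeq2's size factors and 58.6% with limma-voom, where 1028 were lower and 1458 higher. Without WT replicate 1, where 2 members had such a p, 1940 of 14923 genes were lower and 1076 higher.

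The number of detected genes does not overlap between the groups, so as a covariate it can also take up a difference between genotypes. With detected genes as a covariate, values turned to -1.18 for Fos, -0.033 for Fosb, 0.030 for Fosl2, -0.034 for Mafk and -0.34 for Gadd45g. With limma-voom they turned to -0.72 for Fos, 0.64 for Egr1 and 0.22 for Ier2, and with log2(TPM + 1) to 0.018 for Egr1, -0.12 for Rnf44 and -0.26 for Acer3. In the libraries numbered 1 and 2 they were 0.14 for Fosl2, -0.018 for Jun and -0.15 for Oplah. With the replicate block they were 0.050 for Fosl2, -0.19 for Oplah and -0.075 for Rnf44. When 1 library was left out, values ran from -6.23 to 2.08 for Fos, from -0.65 to 0.35 for Egr1, from -0.63 to 0.27 for Ier2, from -0.21 to 0.35 for Oplah and from -0.16 to 0.38 for Rnf44, turning without cKO replicate 2 (Fos, Ier2, Oplah, Rnf44) or WT replicate 2 (Egr1, Ier2). The cause was not tested in these cases, except that Fos had no read left in cKO without cKO replicate 2. Whether the numbers 1 and 2 pair the libraries is not known. The deviations of same-numbered libraries correlated at -0.32 across genes, but with 2 libraries per group this is a single contrast and cannot decide it. The block leaves WT replicates 3 to 6 without a partner. By rank of level per length, Nr4a1 and Jun, and Fos and Egr1, changed places with CPM divided by effective length. Leaving a single cKO library assumes that it varies like the WT group. Depth limits Fos, Fosb, Junb, Egr1 and Atf3, which held between 2 and 12 reads in cKO.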
